A study of Mus musculus with 12 samples.

Results

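The 10 genes of nectins and other immunoglobulin-type adhesion molecules are described in C18-4 and TM4 cells. They are Nectin1, Nectin2, Nectin3, Pvr, Cadm1, Ncam1, Mcam, Alcam, Icam1 and Vcam1, chosen by their gene symbols, and all 10 have a value in every library of a table of 17995 genes. Their gene identifiers in the table are 58235 for Nectin1, 19294 for Nectin2, 58998 for Nectin3, 52118 for Pvr, 54725 for Cadm1, 17967 for Ncam1, 84004 for Mcam, 11658 for Alcam, 15894 for Icam1 and 22329 for Vcam1. The list was drawn up with results of these same libraries in view, so every value of the shM5 comparisons is given as a description, and the adjusted p-values add no independent support.

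C18-4 is a mouse spermatogonial stem cell line, and TM4 is a mouse Sertoli cell line. Cells of each line received a lentiviral mixture of 3 shRNAs against the M5 muscarinic acetylcholine receptor (shM5, labelled CM5 and TMM5) or a control shRNA (shNC, labelled C3NC and TM3NC), and stably transfected cells were kept in culture. There were 3 libraries per group and 12 in all, with the strain label IRC. Neither an age nor a time after transfection is given in the labels. Each cell type is represented by 1 line, and the labels do not say whether the replicates were separate cultures, so that p-values measure only the spread between these libraries, which may be technical.

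Nectins are adhesion molecules that bind nectins on the neighbouring cell, and inside the cell they bind afadin, which links them to actin. In the testis they are known from the junctions between Sertoli cells and between Sertoli cells and spermatids. The other molecules of the list have the same kind of extracellular immunoglobulin domains. CADM1 and NCAM1 bind themselves and related molecules, MCAM and ALCAM are adhesion molecules of many migrating and epithelial cells, and ICAM1 and VCAM1 are ligands of integrins on leukocytes.

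Mcam and Nectin2 were the 2 members with higher levels in all shM5 libraries than in any shNC library of C18-4 cells, and their promoter sequences are shown for that reason. RefSeq's promoter windows of build GRCm38.p6, from 250 bases before to 50 bases after the gene start (300 bases), were given for 5 of the 10 members, Nectin2, Nectin3, Mcam, Alcam and Icam1. The Mcam window is chr9:44134408-44134707 on the plus strand, and the Nectin2 window is chr7:19749524-19749823 on the minus strand. Both are written 5′ to 3′ along the gene. Capitals mark the GC box GGGCGG, read on either strand, and the full cAMP response element TGACGTCA, a palindrome.
Mcam: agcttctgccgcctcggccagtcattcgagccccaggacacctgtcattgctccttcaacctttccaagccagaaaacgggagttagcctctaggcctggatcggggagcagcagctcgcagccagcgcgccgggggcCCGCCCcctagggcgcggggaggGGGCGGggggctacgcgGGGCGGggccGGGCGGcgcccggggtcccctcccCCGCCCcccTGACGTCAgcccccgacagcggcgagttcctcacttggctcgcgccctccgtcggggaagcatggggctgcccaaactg
Nectin2: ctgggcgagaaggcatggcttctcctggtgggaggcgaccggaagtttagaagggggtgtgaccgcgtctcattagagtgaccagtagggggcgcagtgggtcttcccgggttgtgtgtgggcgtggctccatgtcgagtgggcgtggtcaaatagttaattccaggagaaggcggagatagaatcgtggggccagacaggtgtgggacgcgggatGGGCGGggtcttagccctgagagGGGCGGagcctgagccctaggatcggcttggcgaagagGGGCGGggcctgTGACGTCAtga

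The Mcam window held 5 copies of GGGCGG and the Nectin2 window 3, while 35.7% of 32851 promoter windows of the same length held at least 1. Nectin3 had 5 copies, and Alcam and Icam1 had 2 each. TGACGTCA was found once in Mcam and once in Nectin2 and in none of the other 3 windows, against 1.79% of all windows. Its first base lay at -29 in Mcam and at 40 in Nectin2, counted from the gene start. This motif was added to the search after both sequences had been read. TATAAA was found only in the Icam1 window of the 5, against 13.6% of all windows. The E box CANNTG, found in 72.3% of all windows, occurred in each of the 5 except Nectin3. Neither TGANTCA (7.81% of all windows) nor GGGRNNYYCC (8.46%), the NF-kB consensus searched, was found on either strand of the 5 windows. In these patterns R is A or G, Y is C or T, and N is any base. The Icam1 window holds tggaaattcc, which departs from that consensus only in its first base. Sites that depart from the searched pattern were not counted, so a window without a match may still hold an NF-kB site. These matches are letters in a window and say nothing of binding.

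Levels are RPKM, the read numbers scaled by the authors for gene length and library size, so they can be set side by side between genes. The read numbers behind them are not known, and summed RPKM ran from 506413 to 540231 per library. Chrm5, the gene of the M5 receptor, was at 0.01 RPKM in 1 C18-4 shNC library and 1 TM4 shNC library and was listed at 0 in the other 10, so it does not check the labels. Some libraries stood apart. Over all genes tested, TM4 shNC replicate 3 differed from TM4 shNC replicates 1 and 2 by 0.640 and 0.642 (root mean square log2 difference), but from the 3 TM4 shM5 libraries by 0.202 to 0.257. This library thus went against its label over all genes, and whether the label is right could not be checked from Chrm5. The main results that rest on it are given with and without it, but comparisons of gene lists between the lines only with it. In C18-4 cells, replicate 3 differed from its own group by 0.418 and 0.438 in shNC and by 0.376 and 0.388 in shM5, while the distance between the other pair of each group was 0.200 and 0.201. Markers of the labelled cell types were thin. C18-4 had 4 of 17 spermatogonial markers at 1 RPKM or more (Id4, Etv5, Epcam and Uchl1), and 6 of 15 Sertoli markers. TM4 had 7 of 15 Sertoli markers at that level, with Gata1, Trf and Nr5a1 at 0, and both lines had 8 of 12 mesenchymal markers. No endothelial or Leydig marker reached a mean of 1 RPKM in either line. The macrophage marker Cd68 reached that level in both lines and Cd14 in TM4, with Adgre1 listed at 0 in both. In TM4 the summed mesenchymal markers ran from 1230 to 2146 RPKM in shNC and from 2231 to 2243 RPKM in shM5. In C18-4 the summed spermatogonial markers ran from 83.7 to 125.6 RPKM in shNC and from 129.1 to 147.8 RPKM in shM5. The summed Sertoli markers ran from 51.7 to 94.2 RPKM in TM4 shNC and from 46.5 to 50.02 RPKM in TM4 shM5, and from 79.3 to 80.4 RPKM in C18-4 shNC and from 85.1 to 93.0 RPKM in C18-4 shM5. None of these 4 sums overlapped between shNC and shM5, while 18.9% of the genes tested in C18-4 and 26.8% in TM4 did not overlap. The sums of all other marker lists overlapped in both lines. So did the mesenchymal sum in C18-4 (1057 to 1228 RPKM in shNC, 1096 to 1346 RPKM in shM5) and the spermatogonial sum in TM4 (9.73 to 16.2 RPKM in shNC, 16.11 to 17.31 RPKM in shM5). The part of the marker sums in the results was not tested.

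In C18-4 cells treated with shNC, Nectin2 had the highest level of the 10 members, followed by Mcam, Pvr, Ncam1, Nectin3, Cadm1, Vcam1, Nectin1, Alcam and Icam1. Neighbours in this order did not overlap between libraries, except Nectin1 and Alcam. The 3 libraries summed to 177 ± 8.50 RPKM (SD, n = 3) over the 10 members. Nectin2 made up 37.3% of that sum and Mcam 21.8%. In TM4 cells treated with shNC the sum was 173 ± 25.9 RPKM (SD, n = 3), and Pvr (29.6% of it) and Nectin2 (21.9%) led, with overlapping libraries. Vcam1, Ncam1 and Mcam followed and overlapped, while Icam1 was at 0.02 RPKM in 1 library and listed at 0 in the others. Cadm1 was listed at 0 in all 6 TM4 libraries.

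**Figure D1:**
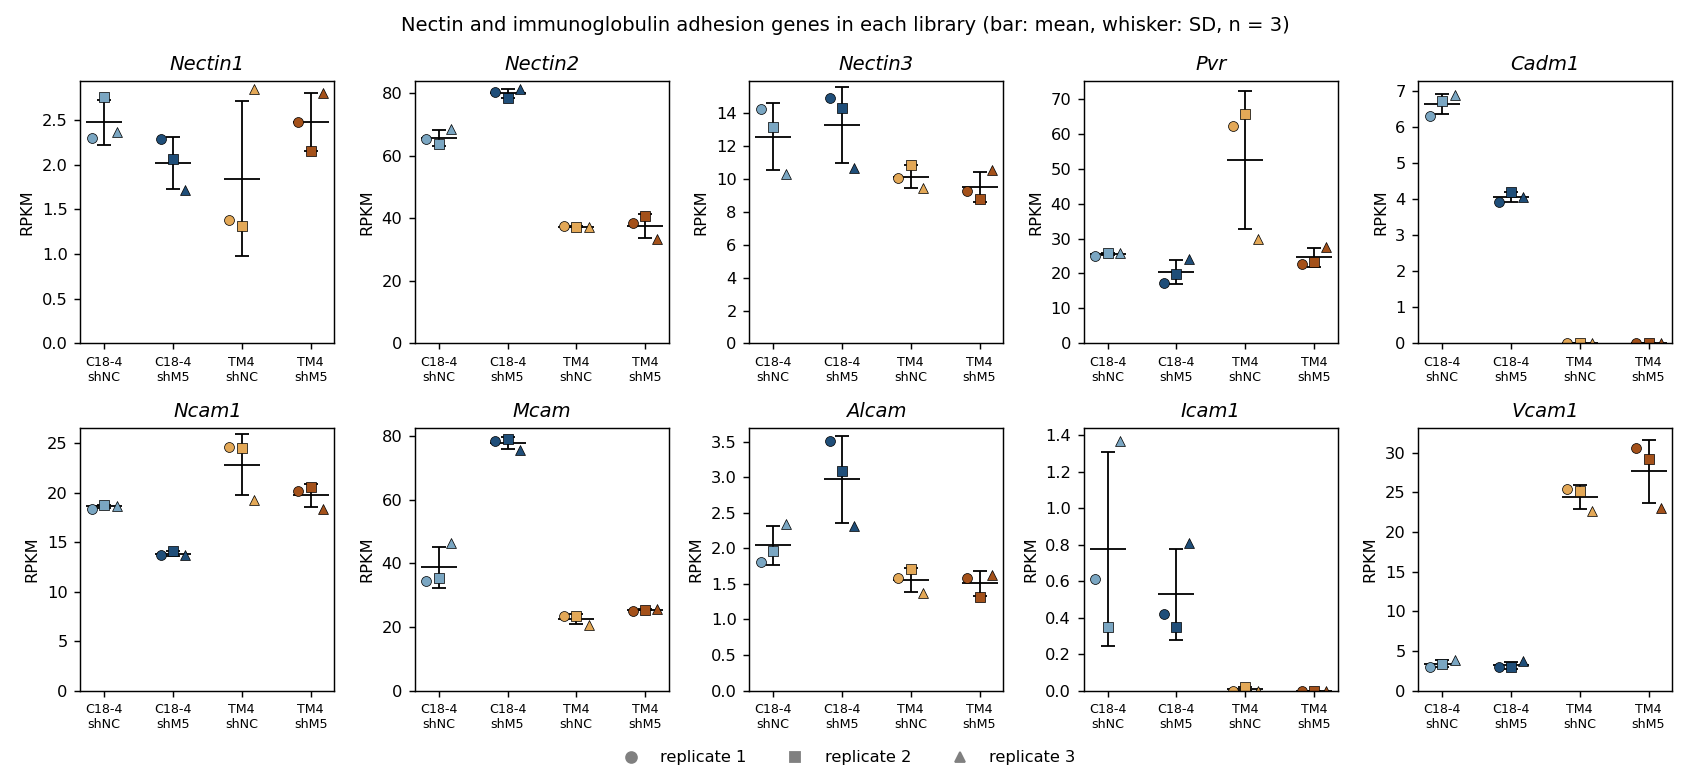
RPKM of each of the 10 genes (vertical axis, starting at 0) in the 4 groups (horizontal axis), with 1 point per library, the replicate shown by the symbol, the bar at the mean and the whisker at the SD (n = 3). Mcam and Nectin2 are higher in all 3 C18-4 shM5 libraries than in shNC, Cadm1 and Ncam1 are lower, Cadm1 lies at 0 in TM4, and Pvr of TM4 shNC replicate 3 (29.9 RPKM) sits near the TM4 shM5 libraries.

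The first comparison asked which members differed between shM5 and shNC in C18-4 cells. Mcam rose about 2-fold and Cadm1 fell, while Ncam1, Pvr and Nectin1 had lower levels and Nectin2 had higher levels without passing the test. These 6 members had groups that did not overlap, 2 higher and 4 lower in shM5, against 18.9% of 11611 genes tested. By limma's test with Benjamini-Hochberg adjustment over all genes tested, 2 of 10 members passed an adjusted p of 0.05, against 0.586% of all genes (0.293% higher and 0.293% lower). The members were chosen with this comparison known, so nothing is read from these shares. No gene reached the study's threshold of an adjusted p of 0.001 and a log2 ratio of 1 (0.0% of the genes tested) in this fit, and 1425 genes had an unadjusted p under 0.05 by limma. With the replicate number as a block, 9 genes reached it (0.0775%), none of them a member. The study put this threshold on a different test, one of read numbers, so these counts cannot be set against its calls.

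Mcam encodes MCAM (CD146), a receptor of the cell surface that takes part in cell contact and movement. Its level was 34.6, 35.4 and 46.3 RPKM in C18-4 shNC replicates 1 to 3 and 78.6, 79.0 and 75.7 RPKM in shM5. Every shM5 library was above every shNC library, and shNC replicate 3 was the highest of its group. The means were 38.7 ± 6.55 and 77.8 ± 1.82 RPKM (SD, n = 3), a ratio of 2.01. On the log2(RPKM + 0.1) scale the difference was 1.02 ± 0.12 (SE), with an adjusted p of 0.0367 by limma. With the replicate number as a block, the adjusted p was 0.00126. Alcam, which encodes the CD6 ligand ALCAM, had 1.81, 1.97 and 2.35 RPKM in shNC and 3.51, 3.09 and 2.31 RPKM in shM5. The groups overlapped through replicate 3, and the log2 difference was 0.51 ± 0.19 (SE), with an adjusted p of 0.356 by limma.

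Cadm1 encodes a nectin-like molecule known to hold spermatogenic cells to Sertoli cells. It had 6.32, 6.73 and 6.88 RPKM in C18-4 shNC and 3.92, 4.21 and 4.06 RPKM in shM5. The groups were well apart, with means of 6.64 ± 0.29 and 4.06 ± 0.15 RPKM (SD, n = 3), a ratio of 0.612. Its log2 difference was -0.70 ± 0.10 (SE), with an adjusted p of 0.0410 by limma, and 0.00329 with the replicate block. Ncam1, the neural cell adhesion molecule, is also known from gonocytes and Sertoli cells in culture. Its level was 18.4, 18.8 and 18.7 RPKM in shNC and 13.7, 14.2 and 13.7 RPKM in shM5. The spread within each group was under 0.3 RPKM (SD 0.20 and 0.27, n = 3), and the ratio of the means was 0.744. The log2 difference was -0.42 ± 0.07 (SE), with an adjusted p of 0.0637 by limma, which missed the threshold, and 0.00568 with the block, which passed it.

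Nectin2, known in Sertoli cells as the partner of nectin-3 on spermatids, had 65.3, 63.7 and 68.7 RPKM in C18-4 shNC and 80.4, 78.4 and 81.4 RPKM in shM5. All shM5 libraries were higher, and the means were 65.9 ± 2.55 and 80.1 ± 1.5 RPKM (SD, n = 3), a ratio of 1.22. The log2 difference was 0.28 ± 0.06 (SE), with an adjusted p of 0.133 by limma and 0.00968 with the block. Nectin3 overlapped between the groups, at 14.3, 13.2 and 10.3 RPKM in shNC and 14.9, 14.4 and 10.7 RPKM in shM5, and replicate 3 was the lowest in both. Nectin1 was near 2 RPKM throughout, with 2.30, 2.76 and 2.36 RPKM in shNC and 2.29, 2.06 and 1.71 RPKM in shM5. The groups were separated by 0.01 RPKM, the last decimal of the values. Pvr, whose human counterpart is the poliovirus receptor CD155, had 25.1, 25.8 and 25.8 RPKM in shNC and 17.3, 19.8 and 24.1 RPKM in shM5. Its shM5 replicate 3 lay close to the shNC libraries. The log2 difference was -0.34 ± 0.12 (SE), with an adjusted p of 0.328 by limma and 0.0408 with the block.

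Vcam1 and Icam1 overlapped between the groups. Vcam1 had 3.02, 3.32 and 3.89 RPKM in C18-4 shNC and 3.01, 2.91 and 3.70 RPKM in shM5. Icam1 had 0.61, 0.35 and 1.37 RPKM in shNC and 0.42, 0.35 and 0.81 RPKM in shM5, so replicate 3 was the highest in each group.

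Samples of C18-4 with the same replicate number deviated together, so the fit with the replicate block was run as the paired one. That link comes from these same values and not from the labels. Replicates 1 and 2 also correlated across numbers (r = 0.341 and 0.345, against 0.439 and 0.409 within numbers), so true pairs are not established. It called 5 members (Mcam and Nectin2 higher, Cadm1, Ncam1 and Pvr lower), against 11.9% of all genes (5.21% higher and 6.73% lower). Within replicate numbers 1, 2 and 3, the log2 ratio was 1.18, 1.16 and 0.71 for Mcam and -0.68, -0.66 and -0.75 for Cadm1. Ncam1 gave -0.42, -0.41 and -0.45, Nectin2 gave 0.30, 0.30 and 0.24, and Pvr gave -0.54, -0.38 and -0.10. For Alcam it was 0.92, 0.62 and -0.02, so its difference was present for 2 of 3 replicate numbers. Without shNC replicate 3 and without the block, Mcam (adjusted p = 0.00203 by limma), Cadm1 (0.0378) and Ncam1 (0.0471) passed, against 2.05% of all genes. Without any other single library no member passed, and for Mcam the adjusted p by limma was 0.163 without shNC replicate 1, 0.209 without shNC replicate 2, 0.222 without shM5 replicate 1, 0.239 without shM5 replicate 2 and 0.0569 without shM5 replicate 3. The Cadm1 values were 0.204, 0.257, 0.268, 0.256 and 0.0729 in the same order. The log2 difference itself stayed between 0.94 and 1.15 for Mcam and between -0.73 and -0.67 for Cadm1.

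**Figure D2:**
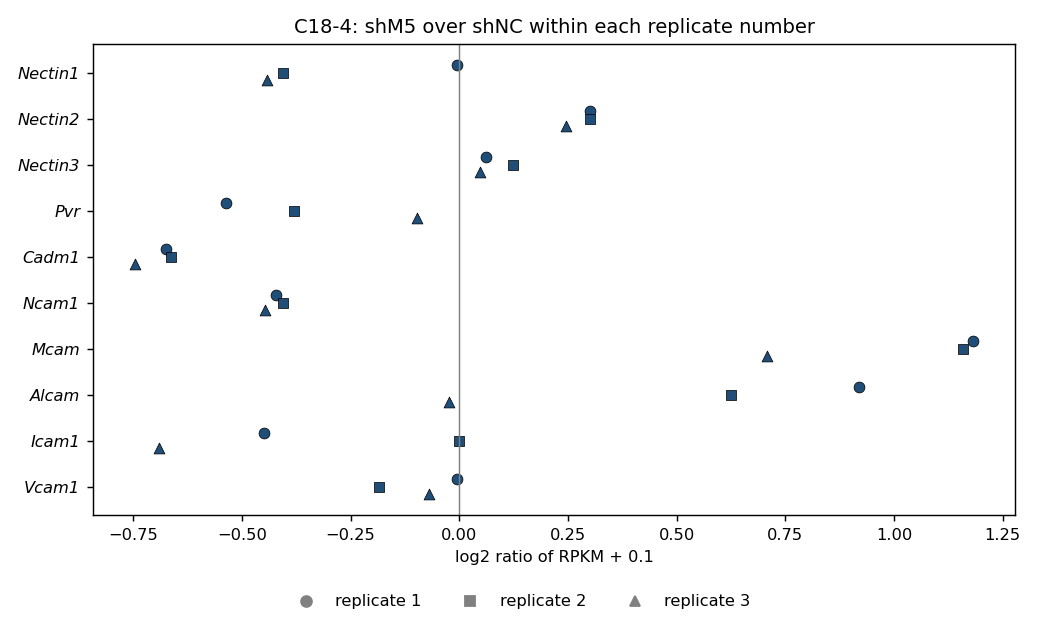
log2 ratio of RPKM + 0.1 of shM5 over shNC in C18-4 cells (horizontal axis) for each of the 10 genes, with 1 point per replicate number. Mcam (0.71 to 1.18) and Nectin2 (0.24 to 0.30) lie to the right of 0 for all 3 replicate numbers. Cadm1 and Ncam1 lie to the left for all 3, and Alcam is at -0.02 in replicate 3. True pairs are not established.

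The summed level of the 10 members was 218 ± 0.18 RPKM (SD, n = 3) in C18-4 shM5, above all 3 shNC libraries (171.7 to 186.5 RPKM). The share of Mcam in the sum was 21.8% in shNC and 35.7% in shM5, and that of Nectin2 was 37.3% and 36.7%. Mcam and Nectin2 then overlapped at the top of the order. Pvr was next, and Ncam1 and Nectin3 overlapped after it. Cadm1 made up 3.76% of the sum in shNC and 1.86% in shM5.

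**Figure D3:**
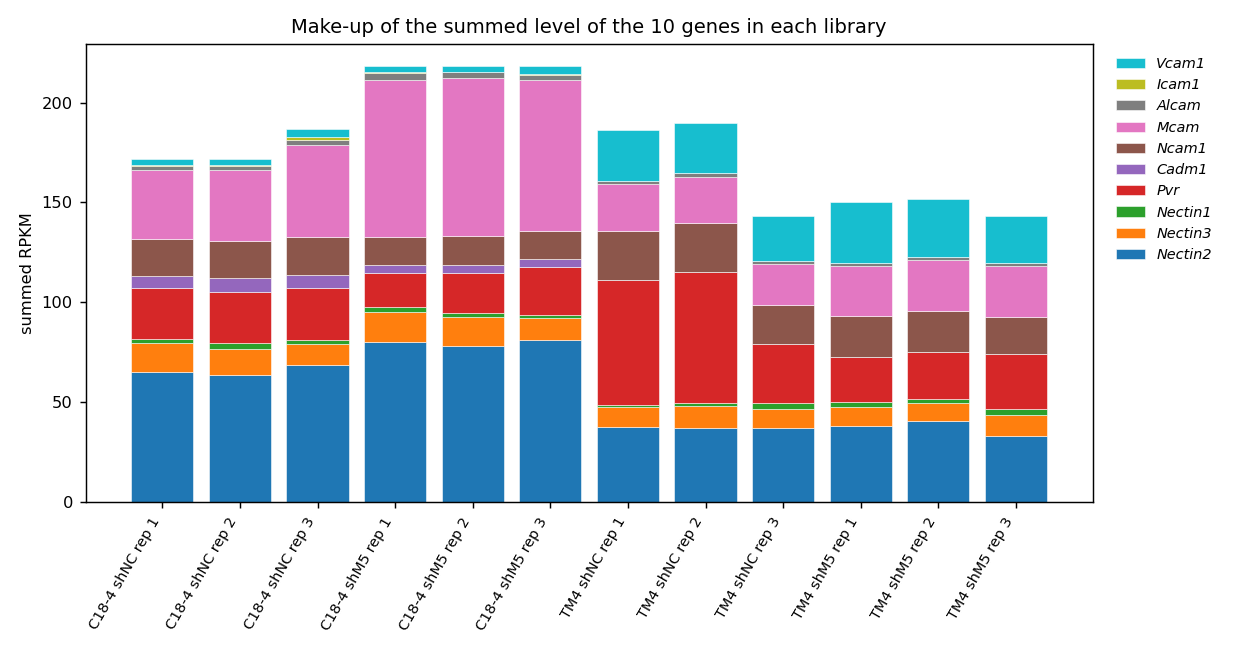
Summed RPKM of the 10 genes (vertical axis, starting at 0) in each of the 12 libraries, with the bar divided by gene. The C18-4 shM5 bars reach 218 RPKM, with Mcam as 35.7% of the sum, and TM4 shNC replicate 3 (143.4 RPKM) is lower than TM4 shNC replicates 1 and 2.

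The second comparison asked the same of TM4 cells. No member passed the test, and Pvr had the largest difference of the members tested, resting on 2 of 3 shNC libraries. Pvr had 62.2, 65.6 and 29.9 RPKM in TM4 shNC and 22.7, 23.4 and 27.7 RPKM in shM5. All shNC libraries were higher than all shM5 libraries, but replicates 1 and 2 of shNC were on average 2.14-fold above replicate 3. The means were 52.6 ± 19.7 and 24.6 ± 2.69 RPKM (SD, n = 3), a ratio of 0.469. The log2 difference was -1.01 ± 0.30 (SE), with an adjusted p of 0.192 by limma. Without TM4 shNC replicate 3 it was -1.38 ± 0.09 (SE), with an adjusted p of 7.44e-06 by limma. Mcam was the other member whose groups did not overlap, with 23.5, 23.3 and 20.7 RPKM in shNC and 25.2, 25.5 and 25.6 RPKM in shM5, and 26.8% of the 11016 genes tested had groups that did not overlap. Its log2 difference was 0.17 ± 0.08 (SE), with an adjusted p of 0.200 by limma. Without TM4 shNC replicate 3 the Mcam difference was 0.11 ± 0.04 (SE, adjusted p = 0.0520 by limma).

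Nectin1 had 1.38, 1.31 and 2.84 RPKM in TM4 shNC and 2.47, 2.15 and 2.80 RPKM in shM5, so shNC replicate 3 was the highest of all 6. Ncam1 had 24.7, 24.6 and 19.3 RPKM in shNC and 20.2, 20.6 and 18.4 RPKM in shM5, again with shNC replicate 3 among the shM5 values. Vcam1 had 25.4, 25.2 and 22.7 RPKM in shNC and 30.7, 29.2 and 23.1 RPKM in shM5, and replicate 3 was the lowest in both groups. Nectin2, at 37.4, 37.3 and 37.2 RPKM in shNC, had 38.4, 40.8 and 33.3 RPKM in shM5, a log2 difference of 0.00 ± 0.09 (SE). Nectin3 ranged from 8.79 to 10.9 RPKM and Alcam from 1.31 to 1.71 RPKM over the 6 libraries, with overlapping groups.

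Of the 8 members tested in TM4, 0 passed an adjusted p of 0.05 by limma, as did 0.0% of all genes, and 1 member (Pvr) and 2866 genes had an unadjusted p under 0.05. Cadm1 and Icam1 were below the minimum level for testing. Without TM4 shNC replicate 3, 3 members passed, Nectin1 higher (log2 difference 0.83 ± 0.15, adjusted p = 0.00157 by limma) and Pvr and Ncam1 lower (-0.32 ± 0.06 for Ncam1, adjusted p = 0.00233). In that fit 67.4% of all genes passed (36.5% higher and 30.9% lower), so that 3 of 8 members is below the share of all genes. Without replicate 3 of both groups, 6 of 8 members passed, with Vcam1 and Mcam higher and Nectin3 lower as well, against 72.7% of all genes, so this share is close to that of all genes.

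**Figure D4:**
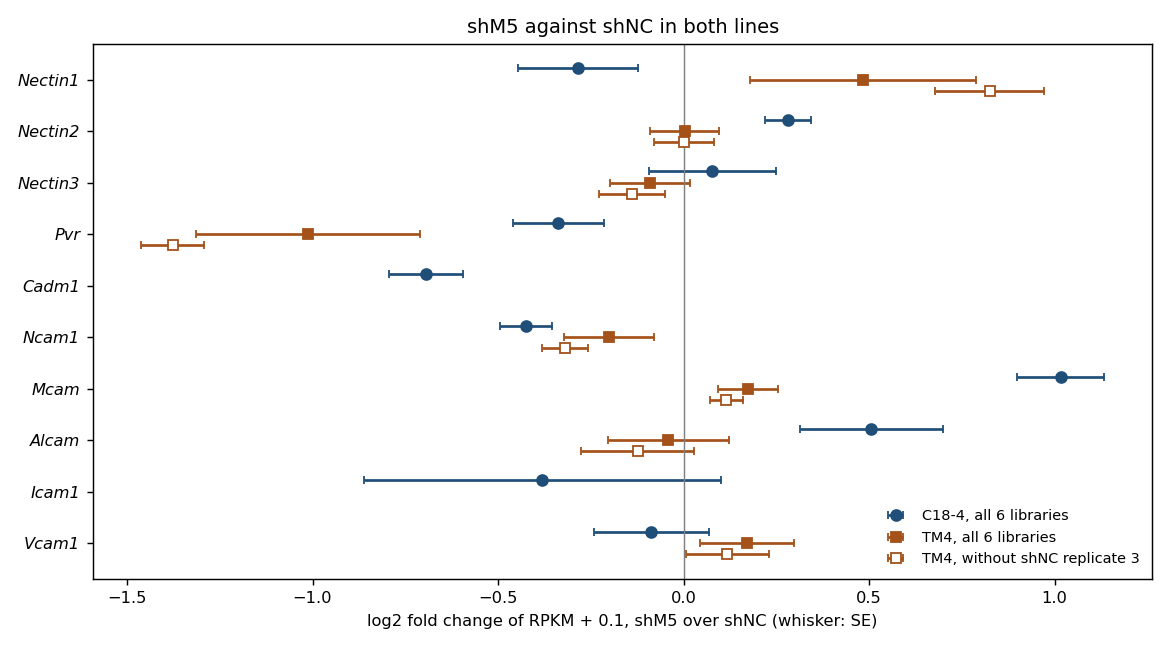
log2 fold change of RPKM + 0.1, shM5 over shNC (horizontal axis), with its SE as the whisker, for C18-4 (circles), TM4 (filled squares) and TM4 without shNC replicate 3 (open squares). Mcam is at 1.02 in C18-4 and 0.17 in TM4, Pvr is at -1.01 in TM4 and -1.38 without that library, and Cadm1 and Icam1 were not tested in TM4.

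The difference of the shM5 effect between the lines was tested in 1 fit of all 12 libraries, over 11773 genes. None of the 9 members tested passed an adjusted p of 0.05 by limma, against 0.102% of all genes, and 4 members and 2463 genes had an unadjusted p under 0.05. For Mcam the log2 difference was 0.84 higher in C18-4 than in TM4 (SE 0.15), with an adjusted p of 0.0612. Nectin1 moved the other way, -0.77 ± 0.35 (SE, adjusted p = 0.244 by limma), and Pvr differed by 0.67 ± 0.35 (SE, adjusted p = 0.278 by limma). Without TM4 shNC replicate 3, 4 of 9 members passed, against 38.0% of all genes. In that fit Mcam differed by 0.90 (adjusted p = 0.000903 by limma), Pvr by 1.04 (adjusted p = 0.00106) and Nectin1 by -1.11 (adjusted p = 0.00263). The fourth was Cadm1 (adjusted p = 0.0103), which was listed at 0 in TM4, so its value here is that of C18-4 alone. Without C18-4 shNC replicate 3, 1 member passed, Mcam, as did 31 genes in all (0.264%).

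The third comparison set C18-4 against TM4 in the shNC libraries, which compares these cultures of 1 line each. By limma, 6 of 9 members passed an adjusted p of 0.05, 3 higher and 3 lower in C18-4, against 65.6% of all genes (40.0% higher and 25.6% lower), and the members' share is close to that of all genes. Groups did not overlap in 63.5% of the genes. Vcam1, the ligand of the integrin alpha-4 beta-1, was 3.41 ± 0.44 RPKM in C18-4 and 24.4 ± 1.53 RPKM in TM4 (SD, n = 3), a ratio of 0.140, with an adjusted p of 7.28e-09 by limma. Pvr had the ratio 0.486 (adjusted p = 0.00515) and Ncam1 0.816 (adjusted p = 0.0259). For Pvr, TM4 shNC replicate 3 (29.9 RPKM) was the TM4 shNC library closest to the C18-4 shNC values (25.1 to 25.8 RPKM). Over single libraries left out, its log2 difference ran from -1.32 to -0.75, with adjusted p of at most 0.0244 by limma. Nectin2 was 65.9 ± 2.55 RPKM in C18-4 and 37.3 ± 0.14 RPKM in TM4, a ratio of 1.77 (SD, n = 3, adjusted p = 2.38e-06 by limma). Mcam had the ratio 1.72 (adjusted p = 5.61e-05). Cadm1 was present at 6.64 ± 0.29 RPKM (SD, n = 3) in C18-4 and listed at 0 in TM4, so no fold is given. It met the minimum level for testing only through C18-4, so its direction was fixed by the filter. Nectin1, Nectin3 and Alcam did not pass, with adjusted p of 0.108, 0.108 and 0.0814 by limma, and Icam1 was not tested. In the shM5 libraries 7 of 9 members passed, against 61.1% of all genes, with Alcam (log2 difference 0.92 ± 0.18, SE, adjusted p = 0.000745 by limma) and Nectin3 (0.47 ± 0.15, SE, adjusted p = 0.0205) higher in C18-4. Over the mean of both treatments 8 of 9 passed, all but Nectin1, against 73.0% of all genes. In the shM5 libraries Pvr no longer passed, and its level was 20.4 ± 3.43 RPKM in C18-4 and 24.6 ± 2.69 RPKM in TM4 (SD, n = 3). The Ncam1 call was lost without replicate 1 or 2 of either shNC group, with adjusted p up to 0.105 by limma. Without TM4 shNC replicate 3, Nectin1 passed (adjusted p = 0.000704). In the shNC libraries Nectin3 also passed without C18-4 shNC replicate 3 (adjusted p = 0.0264 by limma) and Alcam without C18-4 shM5 replicate 3 (adjusted p = 0.0469).

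Partners of the members, genes whose products bind or work with them, were taken as a list. Of these 31 genes (afadin and other linkers, kinases, integrins and immune receptors), 22 could be tested in C18-4 cells, and 1 was higher in shM5 and 0 lower by limma, against 0.586% of all genes. It was Itgb3, the integrin beta-3 subunit, which had 2.74 ± 0.30 RPKM in shNC and 5.33 ± 0.11 RPKM in shM5 (SD, n = 3), a log2 difference of 0.94 ± 0.12 (SE, adjusted p = 0.0410). The median log2 difference of the partners was 0.0021, and that of all genes was -0.0024. With the replicate block 3 were higher (Itgb3, Itgb1 and Afdn) and 1 lower (Fgfr1), against 11.9% of all genes. Itgb1, the integrin beta-1 subunit, had the highest mean of the partners, with 270.7 ± 2.04 RPKM in shNC and 320.3 ± 8.07 RPKM in shM5 (SD, n = 3). Afdn, which encodes afadin, was 36.5 ± 1.86 RPKM in shNC and 43.3 ± 1.53 RPKM in shM5 (SD, n = 3). Fgfr1, a growth factor receptor that NCAM1 can bind, was 4.02 ± 0.49 RPKM in shNC and 2.34 ± 0.15 RPKM in shM5 (SD, n = 3). Ezr and Msn, the actin linkers ezrin and moesin, were the next highest, and they differed between the lines in opposite directions. Ezr had 407.7 ± 42.4 and 400.4 ± 32.3 RPKM in C18-4 shNC and shM5 against 65.0 ± 4.57 and 60.4 ± 0.79 RPKM in TM4 (SD, n = 3). Msn had 141.7 ± 26.3 and 147.6 ± 16.6 RPKM in C18-4 against 310.9 ± 17.2 and 311.2 ± 14.2 RPKM in TM4 (SD, n = 3). In TM4, 0 of 22 partners passed. Without shNC replicate 3 it was 5 higher and 9 lower, in a fit that called 67.4% of all genes. Itgb3 also had a higher mean in TM4 shM5, at 0.94 ± 0.64 RPKM in shNC and 1.79 ± 0.25 RPKM in shM5 (SD, n = 3). Its log2 difference in TM4 was 1.02 ± 0.41 (SE, adjusted p = 0.192 by limma). Without shNC replicate 3 it was 1.49 ± 0.18 (SE, adjusted p = 0.00023 by limma). Between the lines in the shNC libraries, 8 of 23 partners were higher and 10 lower in C18-4, against 65.6% of all genes. The median log2 difference of the 23 was -0.28, against 0.15 for all genes. Epb41l3, among the lower, met the minimum level only through TM4 (0.01 RPKM in C18-4 shNC).

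Of 29 other immunoglobulin-type adhesion genes, 28 were in the table and 12 could be tested in C18-4, where none passed by limma. With the replicate block Bcam, a laminin receptor, was higher, at 38.4 ± 10.1 RPKM in shNC and 57.0 ± 1.71 RPKM in shM5 (SD, n = 3), and Cd47 and Madcam1 were lower. In that fit 11.9% of all genes passed (5.21% higher and 6.73% lower). Bcam was listed at 0 in all TM4 libraries. The median log2 difference of this list was 0.05 in C18-4 and 0.08 in TM4, and that of all genes was -0.0024 and 0.036. F11r, which encodes the junction molecule JAM-A, had the highest mean of this list, with 77.3 ± 8.90 and 80.5 ± 2.43 RPKM in C18-4 shNC and shM5 and 35.1 ± 13.6 and 21.0 ± 1.19 RPKM in TM4 (SD, n = 3). In TM4, 0 of 7 passed, and without shNC replicate 3 it was 3 higher and 3 lower, F11r among the lower, in a fit that called 67.4% of all genes. Between the lines in the shNC libraries, 7 of 12 were higher and 3 lower in C18-4, against 65.6% of all genes, with a median log2 difference of 2.23 against 0.15 for all genes. Of the higher ones, Bcam, Madcam1, Jam2, Mpzl2 and Cadm4 had at most 0.25 RPKM in TM4 shNC. They met the minimum level only through C18-4, and Clmp, among the lower, only through TM4. Their directions were thus fixed by the filter, and nothing is read from these counts or this median.

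The NF-kB pathway, known for inducing Icam1 and Vcam1, was followed through 20 genes, of which 19 could be tested in C18-4. None passed by limma. With the replicate block 2 of 19 were lower and 0 higher, against 11.9% of all genes (6.73% lower). This share is close to that of all genes. The 2 were Nfkbia (53.5 ± 8.71 RPKM in shNC and 41.5 ± 4.83 RPKM in shM5) and Il1r1 (4.16 ± 0.78 and 2.94 ± 0.33 RPKM, SD, n = 3). The median log2 difference was -0.09 in C18-4, against -0.0024 for all genes. In TM4, 0 of 20 passed, with a median of -0.14, against 0.036 for all genes. Without shNC replicate 3 it was 6 higher and 10 lower, in a fit that called 67.4% of all genes. Between the lines in the shNC libraries, 6 of 20 were higher and 9 lower in C18-4, against 65.6% of all genes. The median log2 difference of the 20 was -0.20, against 0.15 for all genes. Traf1, among the lower, met the minimum level only through TM4 (0.28 RPKM in C18-4 shNC). Rela, which had the highest mean of this list, was at 80.7 ± 7.09 and 84.5 ± 14.0 RPKM in C18-4 shNC and shM5 (SD, n = 3). None of the 3 lists had a gene that passed the test of the difference between the lines.

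The genes most like the 3 highest members were taken by Pearson's correlation of log2 values over the 12 libraries, after subtraction of each line's mean, as a description in which the points share libraries and groups. For Mcam they were Peg3 (r = 0.969), Tnc (0.969) and Glipr2 (0.957). Peg3, a paternally expressed zinc finger gene, had a mean of 15.4 RPKM in C18-4 shNC and 34.1 RPKM in shM5 and was listed at 0 in TM4. The r of Peg3 thus draws on the C18-4 libraries alone. Tnc, which encodes the matrix protein tenascin C, had 12.9 and 23.9 RPKM in C18-4 shNC and shM5, and 37.0 and 38.9 RPKM in TM4. For Nectin2 they were Prkcsh (r = 0.957), Arhgap28 (0.928) and Peli1 (0.915). For Pvr they were Mtdh (r = 0.990), Ecpas (0.984) and Eaf1 (0.981), and Mtdh had 124.6 RPKM in TM4 shNC and 85.1 RPKM in TM4 shM5. The Pvr values follow the 2 high TM4 shNC libraries.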

How the data were processed

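The authors enriched mRNA with oligo(dT), sequenced it on an Illumina HiSeq and mapped it with SOAPaligner. The deposited values are RPKM, written by the authors with 2 decimals. Genome build and annotation are not given in the sources used here. The authors tested with the MARS method of DEGseq, which needs reads. RPKM holds no read numbers, so depth is unknown, and limma (3.58.1) in R (4.3.3) was used on log2(RPKM + 0.1), with eBayes and a mean-variance trend, leaving out genes whose mean in the fitted libraries was under 0.5 RPKM, and Benjamini-Hochberg adjustment over all genes tested. A gene was called at an adjusted p under 0.05. Fold changes on this scale understate those of low genes. The steps were tested on simulated data.

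Groups and replicate numbers came from the sample titles. No column was left unmapped. Each line was fitted on its own, and the interaction and the comparison of lines in 1 fit of 12 libraries. In C18-4, deviations from the group means correlated between libraries of the same number (r = 0.439, 0.409 and 0.631 over 11611 genes, all above 0.1), so the block was taken as pairing. The link comes from the data and not from the labels, and replicates 1 and 2 also correlated across numbers (0.341 and 0.345).

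The members and gene lists were chosen with earlier results of these data known. The text names all members, list genes past the threshold in a fit or among the 3 with the highest mean of their list, and the 3 genes of at least 5 RPKM most like each of the 3 highest members; not every list gene that met this rule is given with values. Alternatives tried were pseudocounts of 1 and 0.01, filters, quantile and upper quartile scaling, the replicate block, a fit without trend, other sets of libraries, and leaving out each library.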

Additional observations from a re-analysis of the deposited data

How the results depend on the processing

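In C18-4, 2 members and 68 genes passed. Leaving out single libraries gave 0 to 3 members and 0 to 237 genes. No filter on low values gave 0 members and 4 genes, no trend 45 genes, and all 12 libraries in 1 fit 143 genes. The replicate block gave 5 members and 1386 genes. With the block and, chosen after seeing the data, without replicate 1, 2 or 3 of both groups, 4, 5 and 6 members and 758, 921 and 3377 genes passed, and 43, 72 and 48 genes reached the threshold of the study, against 9 with the block and 0 without it. Mcam was among the 48 (adjusted p = 4.46e-06 by limma). In TM4, leaving out single libraries gave 0 to 3 members and 0 to 7433 genes, the upper end without shNC replicate 3. Without replicate 3 of both groups, also chosen after seeing the data, 6 members and 8016 genes passed. For the difference between lines, 0 members and 12 genes passed. A pseudocount of 1 gave 1 member (Cadm1) and 27 genes, quantile normalization 1 (Mcam) and 26, no trend 1 (Cadm1) and 22, and no filter 21 genes, while leaving out single libraries gave 0 to 4 members and 0 to 4477 genes. The cause was not tested. Between lines, 5 to 7 members and 6937 to 8672 genes passed when single libraries were left out.

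The replicate numbers of TM4 (r = 0.0729, 0.0489 and 0.127) and those shared between lines (-0.225, -0.198 and -0.303) paired no libraries. The block there gave 0 members in TM4, 0 members and 2 genes for the difference, and 6 members between lines.

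Directions changed only for members that did not pass. In C18-4, over single libraries left out, Nectin3 ran from -0.059 to 0.23, Icam1 from -0.77 to 0.079 and Vcam1 from -0.19 to 0.0098 (log2). In TM4, Nectin2 ran from -0.060 to 0.085 and was -0.0050 with upper quartile scaling, and Alcam ran from -0.12 to 0.050. Between lines, quantile normalization moved Nectin1 to -0.12 and Alcam to -0.32, and Nectin1 was -0.28 in the shM5 libraries, an alternative added after seeing the data. Quantile normalization moved the median of all genes between lines from 0.15 to -0.0051 and the split of calls from 4711 higher and 3014 lower to 3897 and 3925. RPKM without read numbers leaves the sampling error of low members such as Icam1 unknown.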
